A study of Mus musculus with 21 samples.

Results

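The regions described here are 236 distal sites in mouse hepatocytes that carry C/EBPα with and without ARID1A, overlap a peak of tagged ARID1A, and stand close together on the chromosome. They were chosen from the peak lists by a rule. Overlapping C/EBPα peaks of the 4 lists (by 1 bp or more) were joined into 27244 regions, and 11664 of these had a peak in all 4 lists. Of those, 3290 overlapped an ARID1A peak and lay more than 1 kb from either end of any protein-coding gene, and these were joined into chains when neighbours were 12.5 kb or less apart. Chains of 3 or more regions were taken: 72 chains with 236 regions, which are 7.17% of the 3290 distal shared regions and 0.866% of all merged regions. The other distal shared regions were 2416 isolated ones and 638 in 319 chains of 2.

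The material was hepatocytes isolated by liver perfusion from mice of a mixed C57/B6 and 129 strain at postnatal day 90. Chromatin immunoprecipitation with sequencing (ChIP-seq) was run with antibodies to C/EBPα (2 WT and 2 KO libraries), to histone H3 dimethylated at lysine 4 (H3K4me2, 3 WT and 3 KO libraries) and to the V5 tag (1 library). WT mice had the genotype Arid1a Fl/Fl and KO mice Arid1a Fl/Fl; Alb-cre, so both carried the floxed alleles and differed by a Cre recombinase under the albumin promoter, which is active in hepatocytes. The V5 library came from V5-Arid1a mice, in which ARID1A is present and tagged, so it maps ARID1A outside the WT and KO animals. The labels do not say whether libraries of a group came from separate animals or from pools, so p-values measure only the spread between these libraries.

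C/EBPα is a basic leucine zipper transcription factor that binds DNA as a dimer and keeps the metabolic genes of differentiated hepatocytes active. ARID1A is a DNA-binding subunit of the BAF form of SWI/SNF, a complex that uses ATP to move and evict nucleosomes, and it is often found at enhancers. H3K4me2 marks promoters and enhancers. Enhancers that lie in dense groups are commonly found around genes that define a cell type.

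The rule fixes that each of the 236 regions has C/EBPα in both WT and both KO lists and overlaps an ARID1A peak, so neither is a finding. Within a chain, the gap from the end of one region to the start of the next ran from 37 to 12384 bp with a median of 5166.5 bp over 164 gaps, and 20 gaps were under 1 kb. The largest gaps that still joined regions were 12335 and 12384 bp, and the smallest that did not were 12617 and 12624 bp. The region nearest to a gene end lay 1036 bp away, at Gc, and the nearest shared region left out for that reason lay 991 bp away. There were 55 chains of 3 regions, 14 of 4 and 3 of 5. Chains spanned 2.85 to 36.1 kb with a median of 14.2 kb, and 1077 kb in all.

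A genome sequence was not used here, so sequence can be shown only where a RefSeq promoter window falls inside a region. These windows run from 250 bases before to 50 after an annotated start, on build GRCm38.p6, and 5 of them reached into one of the 236 regions. Of these, 3 are starts of long noncoding RNAs and the others are internal starts of Col18a1 and Slc25a25. The rule that set regions apart from gene ends used only the outer ends of protein-coding genes, so such starts stayed in. The 4 windows below are shown because they are the only letters of these regions at hand that bear a loose C/EBP match or lie in one of the 12 largest chains. Capitals mark matches of TTNNGCAA, in either direction, a loosened form of the C/EBP palindrome that was chosen after the windows were seen.
Gm40156 in the Adh7 chain, chr3:138260873-138261172, plus strand: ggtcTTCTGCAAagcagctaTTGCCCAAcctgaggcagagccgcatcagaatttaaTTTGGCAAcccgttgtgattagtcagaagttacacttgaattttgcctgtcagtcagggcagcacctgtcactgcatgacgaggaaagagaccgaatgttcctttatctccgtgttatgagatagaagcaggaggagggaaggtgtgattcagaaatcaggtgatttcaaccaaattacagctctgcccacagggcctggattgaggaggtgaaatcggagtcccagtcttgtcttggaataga
Gm30365 in the Lacc1 chain, chr14:76837707-76838006, minus strand: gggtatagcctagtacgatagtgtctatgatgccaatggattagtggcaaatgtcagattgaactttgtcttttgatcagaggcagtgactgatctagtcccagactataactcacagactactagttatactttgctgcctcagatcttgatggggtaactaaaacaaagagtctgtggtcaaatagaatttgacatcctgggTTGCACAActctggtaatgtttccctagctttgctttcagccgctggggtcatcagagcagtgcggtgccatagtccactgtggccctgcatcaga
Slc25a25 internal start, chr2:32424017-32424316, minus strand: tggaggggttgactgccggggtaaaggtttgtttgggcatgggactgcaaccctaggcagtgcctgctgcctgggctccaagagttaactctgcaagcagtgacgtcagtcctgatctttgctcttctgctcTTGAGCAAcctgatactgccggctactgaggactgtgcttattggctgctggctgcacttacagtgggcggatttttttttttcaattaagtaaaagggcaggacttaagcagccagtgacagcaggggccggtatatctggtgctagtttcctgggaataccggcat
Col18a1 internal start, the part inside the region, chr10:77113708-77113955, minus strand: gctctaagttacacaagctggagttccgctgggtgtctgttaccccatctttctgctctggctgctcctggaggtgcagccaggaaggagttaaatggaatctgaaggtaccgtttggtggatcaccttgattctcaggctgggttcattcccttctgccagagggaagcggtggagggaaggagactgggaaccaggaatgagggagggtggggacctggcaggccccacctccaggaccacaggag

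The Gm40156 window held 3 matches of TTNNGCAA, the first TTCTGCAA. The Gm30365 window held TTGCACAA and the Slc25a25 window TTGAGCAA, 1 match each, and the windows of Col18a1 and Gm28644, the fifth, held none. Over all 32851 RefSeq promoter windows, 10.8% hold this motif on either strand. The stricter C/EBP palindromes TTNCGNAA and TTGCGCAA, which overlap each other, were in none of the 5 windows, and in 2.47% and 0.183% of all. A FOXA motif (TGTTTAC) and an HNF4 motif (CAAAGTCCA) were also in none, and in 3.65% and 0.475% of all, both strands searched. These counts describe the letters of 5 windows out of 236 regions.

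Chains are named by the protein-coding gene that overlaps most of the span, or else by the nearest one. This is a label of position and does not say which gene a region acts on. Of the 72 chains, 44 overlapped a gene body and 28 lay outside genes, and in 35 all regions were inside 1 gene. Of the 236 regions, 128 (54.2%) lay in gene bodies, against 57.3% of the isolated regions and 59.9% of all merged regions. Chains were found on every autosome and not on the X chromosome, which held 27 distal shared regions. Chromosome 18 had the most, with 8 chains and 26 regions, which are 22.0% of its 118 distal shared regions. Chromosomes 8 and 10 had 7 chains each, and chromosomes 3, 7, 11, 12, 13 and 17 had 1 each.

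The 3 chains of 5 regions were at Rbm47, Cyb5a and Hsd17b6. The Rbm47 chain, chr5:66043830-66079912, was the longest at 36.1 kb and lay inside Rbm47, which encodes an RNA-binding protein of apolipoprotein B mRNA editing. The Cyb5a chain of 31.8 kb began 4926 bp from Cyb5a, the gene of the electron carrier cytochrome b5. The Hsd17b6 chain, chr10:127936609-127966940, lay 23991 bp from Hsd17b6, a hydroxysteroid dehydrogenase gene, with Rdh7, a retinol dehydrogenase gene, also within 50 kb.

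The next 9 chains had 4 regions each and are given by length. They lay near Nudt7 (a peroxisomal coenzyme A diphosphatase), in Ell (an RNA polymerase II elongation factor), in Col18a1 (collagen XVIII), in Itpr1 (a calcium channel of the endoplasmic reticulum) and in Igf1 (the main endocrine growth factor made by the liver). The others lay near Khdc1a with Gsta3 (a glutathione transferase) within 50 kb, near Adh7 with Adh1 (the main liver alcohol dehydrogenase) within 50 kb, in Adgrv1 (an adhesion receptor) and at Mat1a (the liver methionine adenosyltransferase). Itpr1 held a further chain of 3 regions, so it had 7 regions in 2 chains.

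**Figure D1:**
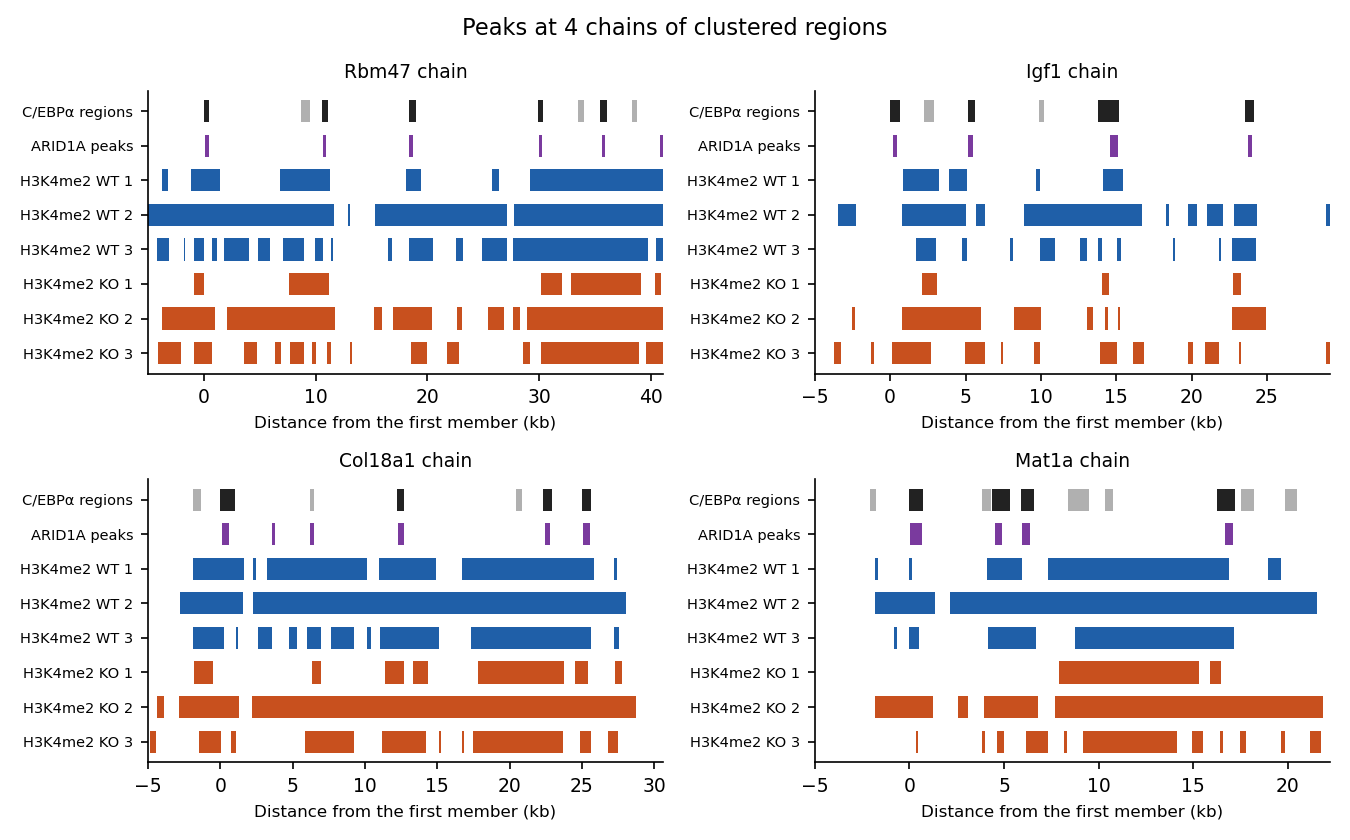
Maps of 4 chains, with position in kb from the chain start on the horizontal axis and 1 row per track: the clustered regions (black) and other C/EBPα regions (grey), the ARID1A peaks and the H3K4me2 peaks of each of the 3 WT and 3 KO libraries. The H3K4me2 peaks covered nearly the whole Col18a1 and Mat1a spans in WT 2 (97.2% and 95.4%) and left much of the Igf1 span bare in every library but WT 2.

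Genes of hepatocyte function were looked for within 50 kb of a chain. Of 21887 protein-coding genes, 141 (0.644%) lay that near a chain, and of 229 genes in 10 lists of liver functions 16 did (6.99%). By list, 4 of 25 genes of the urea cycle and amino acids were near a chain: Asl and Cps1 of the urea cycle, Mat1a, and Tat, which encodes tyrosine aminotransferase. For cytochromes P450 and conjugation it was 4 of 31: Cyp2e1, Cyp3a25, Gsta3 and Nr1i2, the last the gene of the xenobiotic receptor PXR. For the growth hormone axis it was 2 of 13, Ghr (the growth hormone receptor) and Igf1.

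The remaining liver lists gave fewer genes. They were Onecut1 and Rora among 24 hepatocyte transcription factors, Gc (vitamin D binding protein) among 37 plasma proteins, Lcn2 among 17 acute-phase proteins, Cpt1a (the entry step of fatty acid oxidation in mitochondria) among 36 lipid genes, and Irs1 among 20 glucose genes. None of 15 bile acid genes and none of 11 iron genes lay near a chain. Of 105 genes in lists of other functions, Cdk1 and Gusb did, and of 71 marker genes of other cell types none did.

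Isolated regions are more numerous and lay near more genes of each of these pooled lists. Of all protein-coding genes 16.1% were within 50 kb of one, against 52.0% of the liver lists, 21 of the 105 genes of other functions and 9.86% of the markers of other cell types. For bile acids, 12 of 15 genes were near an isolated region. Distances of genes were described with no test, since the lists were written with earlier results of these data known.

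H3K4me2 was not used by the rule, and its libraries allow a test. In the WT libraries 1, 2 and 3, an H3K4me2 peak overlapped 204 (86.4%, exact 95% binomial interval 81.4 to 90.5), 220 (93.2%, 89.2 to 96.1) and 190 (80.5%, 74.9 to 85.4) of the 236 regions. In the KO libraries 1, 2 and 3 it overlapped 130 (55.1%, 48.5 to 61.5), 213 (90.3%, 85.7 to 93.7) and 154 (65.3%, 58.8 to 71.3). KO 2 lay within the range of the WT libraries while KO 1 and KO 3 lay below all of them, so the groups overlap. The intervals cover counting error only. They treat the 236 regions as independent, though these lie in 72 chains and some share an H3K4me2 peak.

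The WT mean was 86.7% ± 6.36 (SD, n = 3) and the KO mean 70.2% ± 18.1 (SD, n = 3), a difference of -16.5 percentage points. An exact two-sided permutation test over libraries gave p = 0.3, and 0.5 after Benjamini-Hochberg adjustment over the 5 tests made, where 3 libraries against 3 cannot go below 0.1. A difference between the genotypes was therefore not shown. Without KO 1 the difference was -8.97 and without KO 2 it was -26.6, so single libraries move its size by more than 1.5 times. KO 1 had the shortest H3K4me2 list, 24908 peaks, and KO 3 the longest, 175797 peaks with a median length of 429 bp, against 34849 to 61246 in the other 4. With each list cut to its 24908 strongest peaks by −log10 q, the shares were 70.3%, 66.9% and 42.4% in WT 1, 2 and 3 and 55.1%, 57.2% and 17.4% in KO 1, 2 and 3. The difference was then -16.7 (exact permutation p = 0.4), with WT 3 below KO 1 and KO 2. In bulk hepatocytes, fewer cells carrying the mark and less mark per cell cannot be told apart.

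**Figure D2:**
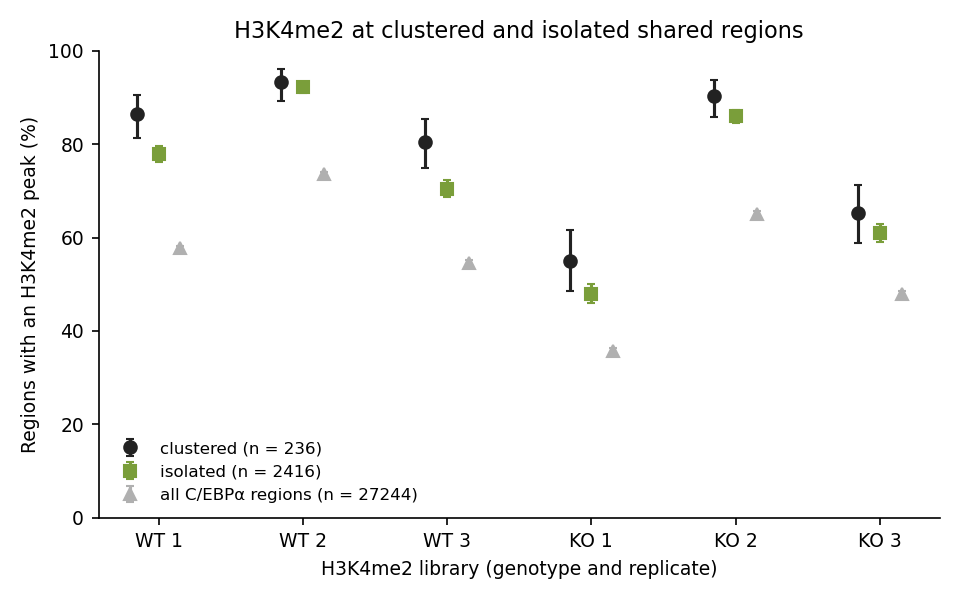
Share of regions with an H3K4me2 peak, in percent, in each of the 6 libraries, for the clustered regions, the isolated ones and all merged C/EBPα regions. In every library the clustered regions were above the isolated ones, and KO 1 was the lowest library for all of them.

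Compared with isolated regions in the same library, clustered regions carried H3K4me2 more often, and regions in chains of 2 carried it about as often as clustered ones. The isolated shares were 78.0%, 92.1% and 70.4% in WT 1, 2 and 3 and 48.0%, 86.0% and 60.9% in KO 1, 2 and 3. The gap was 8.46, 1.08 and 10.1 percentage points in the WT libraries and 7.11, 4.29 and 4.33 in the KO libraries. It was above 0 in 6 of 6 libraries, smallest in WT 2, where nearly all regions of both kinds were marked. Regions in chains of 2 were marked in 85.4%, 96.2% and 79.5% in WT and in 56.4%, 91.4% and 68.2% in KO, above the clustered regions in all libraries but WT 1 and WT 3. The higher share is therefore not particular to chains of 3 or more.

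The mean gap was 5.89 percentage points ± 3.27 (SD, n = 6). The exact two-sided sign-flip test over libraries gave p = 0.03125, the smallest 6 libraries can give, and 0.078 after adjustment over the 5 tests, which misses the threshold of 0.05. With chains of 4 or more alone the mean gap was 1.84 (exact sign-flip p = 0.469), and it was above 0 in 3 of 6 libraries, with values below 0 in WT 1, WT 2 and KO 1. Clustered regions were wider than isolated ones, with medians of 655.5 and 576 bp. When only the centre base of a region was asked to lie in a peak, the mean gap was 5.32. The gap itself differed by -1.29 percentage points between KO and WT (means 5.24 ± 1.62 and 6.54 ± 4.79, SD, n = 3 each; exact permutation p = 0.8, adjusted 0.8). Its sign was not stable: it was 0.68 when only chains of 4 or more were used and 0.47 without WT 3.

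The H3K4me2 peaks at clustered regions were also longer than those at isolated regions in most libraries. For each marked region the longest peak touching it was taken, so a peak over several neighbouring regions counts once for each of them. The median of these lengths over marked regions was 1839, 3499 and 1329 bp in WT 1, 2 and 3. In KO 1, 2 and 3 it was 771.5, 2888 and 1158.5 bp. Over isolated regions it was 1131.5, 1894 and 1191.5 bp in WT and 813, 1815 and 1010.5 bp in KO. KO 1 was the exception, with shorter peaks at clustered regions. Over chains of 2 the medians were 1735, 3248 and 1525 bp in WT and 914, 2665 and 1134 bp in KO, close to those of clustered regions and longer in WT 3 and KO 1.

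Outside the outermost regions, H3K4me2 also covered more bases around chains than around isolated regions. Any H3K4me2 peak there was counted, also one apart from the regions. In the 5 kb outside each end of a chain, H3K4me2 covered 20.7%, 36.8% and 19.3% of bases in WT 1, 2 and 3 and 9.63%, 33.4% and 20.6% in KO 1, 2 and 3. In the 5 kb on each side of isolated regions it covered 15.8%, 27.5% and 16.3% in WT and 8.23%, 24.8% and 16.7% in KO. The chain flanks were higher in 6 of 6 libraries, by 5.17 percentage points ± 3.12 on average (SD, n = 6; exact sign-flip p = 0.03125, adjusted 0.078). Beyond chains of 2 it covered 20.8%, 33.8% and 20.7% in WT and 11.04%, 30.5% and 20.8% in KO, close to the flanks of the longer chains. This comparison was added after the data were seen.

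**Figure D3:**
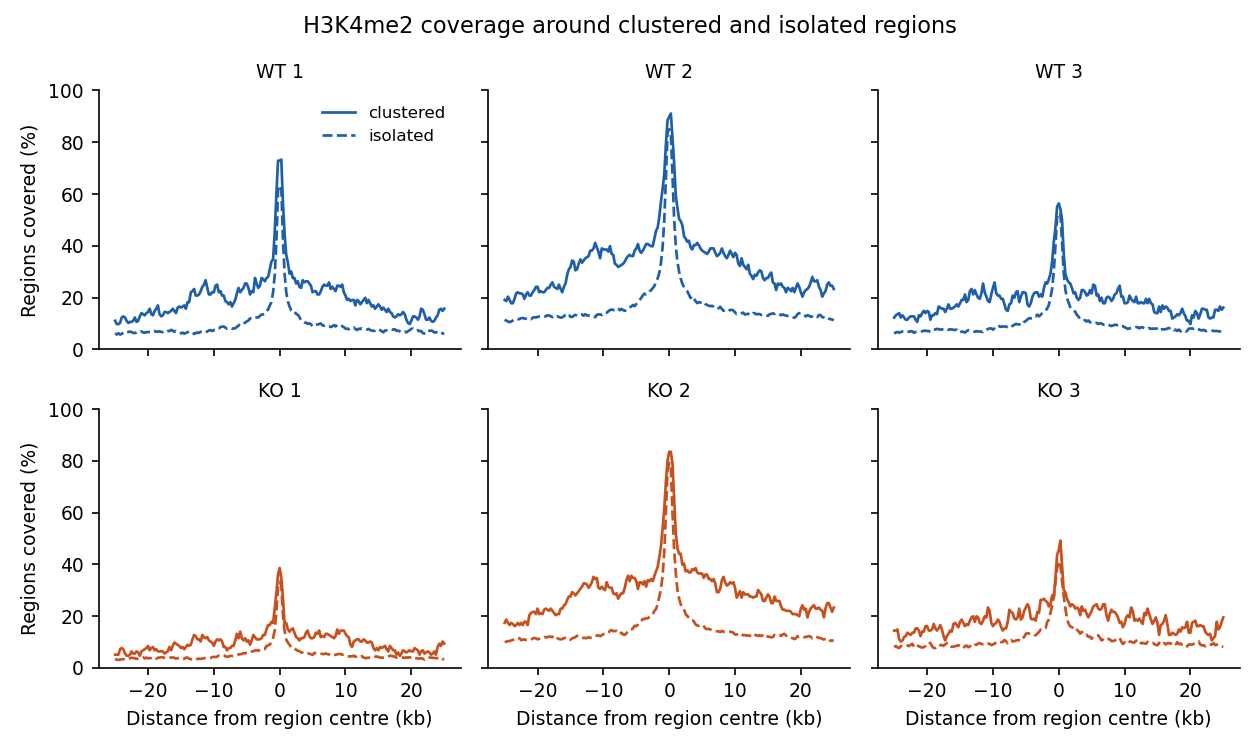
H3K4me2-covered share of regions, in percent, against distance in kb from the region centre, for clustered and isolated regions in each library. Coverage was highest at or next to the centre in both, and coverage away from the centre was higher around clustered regions, where the rule places other clustered regions within 12.5 kb.

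Over whole spans, from the first start to the last end of each chain, H3K4me2 covered 34.5%, 52.9% and 29.5% of bases in WT 1, 2 and 3. In KO 1, 2 and 3 it covered 16.8%, 46.1% and 26.6%. KO 2 was above 2 of the WT libraries, so the groups overlap here too. The means were 38.9% ± 12.3 and 29.8% ± 14.9 (SD, n = 3 each), a difference of -9.12 percentage points (exact permutation p = 0.4, adjusted 0.5). It was -2.15 without WT 2, -2.59 without KO 1 and -17.2 without KO 2.

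Marking was uneven inside chains. All regions of a chain were marked in 50, 59 and 38 of the 72 chains in WT 1, 2 and 3, and in 12, 53 and 23 in KO 1, 2 and 3. No region was marked in 0, 0 and 1 chains in WT and in 6, 1 and 6 in KO. All regions shared 1 single H3K4me2 peak in only 1 to 5 chains of a library, so the mark is mostly broken up between regions. Regions in such a peak are not independent of each other.

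The middle regions of chains of 3 were marked in 90.9%, 98.2% and 83.6% in WT 1, 2 and 3 and in 63.6%, 94.5% and 70.9% in KO 1, 2 and 3. The outer regions of the same chains were marked in 90.9%, 93.6% and 79.1% in WT and in 56.4%, 89.1% and 61.8% in KO. Middle regions were level with the outer ones in WT 1 and above them in the other 5 libraries. Regions in gene bodies were marked in 89.1%, 96.9% and 85.9% in WT and 56.2%, 92.2% and 70.3% in KO, against 83.3%, 88.9% and 74.1% and 53.7%, 88.0% and 59.3% outside genes. These are descriptions with no test.

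Of the 236 regions, 92 (39.0%) had an H3K4me2 peak in all 6 libraries, against a background of 26.7% over all merged regions. The share was 39.8% in chains of 2, 37.4% over all regions with 4 C/EBPα peaks and 33.0% of isolated regions. At least 1 library had a peak at 234 (99.2%), against a background of 82.0% and 99.4% in chains of 2. The 2 without any were 1 near Gpam, chr19:55150211-55150658, and 1 in Scp2, chr4:108077216-108077941. Gpam encodes the first enzyme of triglyceride synthesis and Scp2 a peroxisomal lipid carrier. Both regions stand beside others of their chain that were marked.

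A peak in all 3 WT and no KO library was seen at 2 regions, which is 0.847% against a background of 1.25%, and the reverse at 0, with a background of 0.00734%. The first was in Enpp2, chr15:54862964-54863698. Enpp2 encodes autotaxin, the secreted enzyme that makes lysophosphatidic acid. The second lay in Gm826, chr2:160332577-160333240. These regions, and those near Gpam and in Scp2, were chosen after their values were seen.

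The share of a region's bases in H3K4me2 peaks was lower in every KO than in every WT library at 8 regions (3.39%, background 2.97%) and higher in every KO library at 0 (background 0.0734%). The 8 regions lay in the chains of Cyb5a, Lacc1, Gm826 (2 regions), Trib1, Lrp6, Scyl2 and Enpp2. The share among clustered regions is close to the background.

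By chain, the mean covered share was lower in KO in 62 of 72 chains (86.1%) and higher in 10. It was lower in 87.1% and higher in 11.9% of chains of 2. Of 2416 single regions it was lower in 69.5%, higher in 19.9% and equal in 256. Chains share the libraries, so these directions are not separate observations. Every KO library was below every WT library in 3 chains, against a background of 3.67% over 2807 chains of 1 or more, and above in 0 (background 0).

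The first of the 3 chains was near Nudt7, chr8:114090542-114118053. H3K4me2 covered 24.2%, 17.3% and 13.3% of its span in WT 1, 2 and 3, and 0.124%, 10.6% and 11.2% in KO 1, 2 and 3. The means were 18.3% ± 5.49 and 7.33% ± 6.24 (SD, n = 3 each). KO 1 had next to no coverage, and the other KO libraries lay just under the lowest WT library.

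The second lay 2254 bp from Olfr541, an olfactory receptor gene, and within 50 kb of Cyp2e1, the ethanol-metabolising cytochrome P450, at chr7:140707445-140721596. Its covered shares were 28.1%, 42.3% and 17.7% in WT and 8.35%, 17.5% and 11.2% in KO, with means of 29.4% ± 12.4 and 12.4% ± 4.68 (SD, n = 3 each). WT 3 and KO 2 nearly touched. The first region of this chain had H3K4me2 in WT 1 and WT 2 and in no other library, and the middle region in all 6.

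The third was the Enpp2 chain, chr15:54862964-54872905, with 28.6%, 41.8% and 16.6% in WT and 0%, 11.5% and 12.3% in KO (means 29.0% ± 12.6 and 7.95% ± 6.89, SD, n = 3 each). Each of these 3 chains gave an exact permutation p of 0.1, the smallest that 3 libraries against 3 allow, and the number of such chains is near the background. In the Enpp2 chain the C/EBPα peak at the first region was 653 and 721 bp wide in WT and 422 and 324 bp in KO. This region was picked after its values were seen. Both KO width percentiles were below both WT ones at 23.3% of the clustered regions, against a background of 27.8%.

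**Figure D4:**
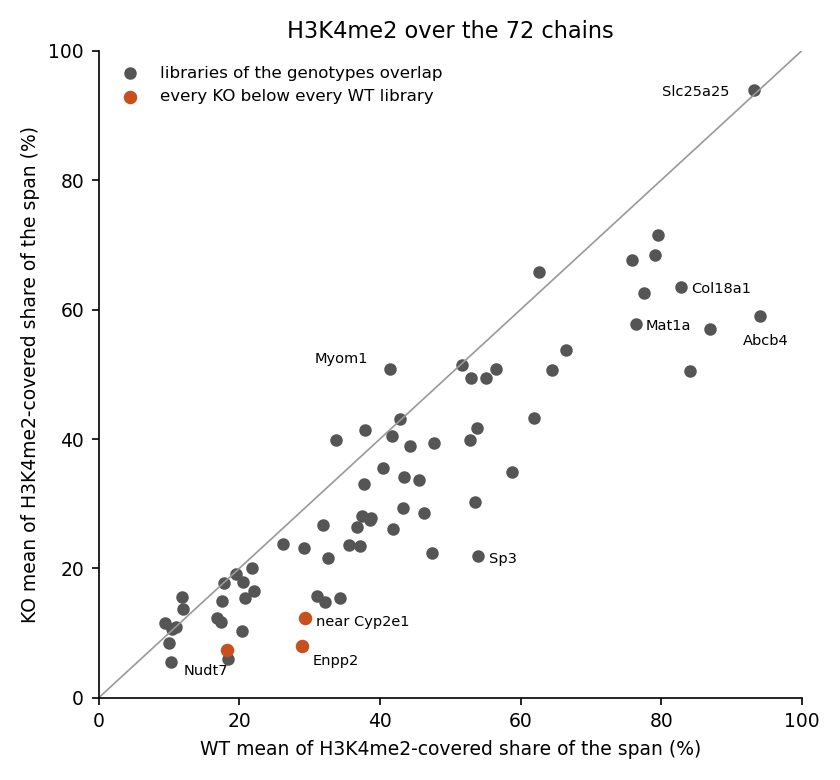
H3K4me2-covered share of each chain, in percent, as the WT mean (horizontal axis) against the KO mean (vertical axis), with 1 point for each of the 72 chains. Points below the diagonal are lower in KO: 62 chains lie below it, and the 3 chains whose libraries do not overlap are marked.

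The largest differences of means towards lower KO values were in chains whose libraries overlap, at Abcb4, Nedd4l, Sp3 and Slc7a2, and these were chosen after their values were seen. The Abcb4 chain, in the gene of the canalicular phospholipid transporter, was covered 100%, 100% and 82.1% in WT and 8.71%, 100% and 68.4% in KO, a difference of -35.0 points. KO 2 was as high as the highest WT library. The Sp3 chain had 53.4%, 57.8% and 50.7% in WT and 6.84%, 58.8% and 0% in KO, with no coverage at all in KO 3. The Slc7a2 chain, in a cationic amino acid transporter gene, had 85.3%, 95.1% and 80.7% in WT against 29.2%, 93.8% and 47.8% in KO. The Nedd4l chain, 2572 bp outside the gene of a ubiquitin ligase of sodium channels, had means of 84.1% ± 17.1 in WT and 50.4% ± 25.8 in KO (SD, n = 3 each). A second chain, inside Nedd4l, went the other way, with means of 62.6% ± 24.0 in WT and 65.8% ± 18.7 in KO (SD, n = 3 each), a difference of 3.17 points. In all 4 chains with the large falls, KO 2 lay within or above the WT libraries while KO 1 and KO 3 lay below them. The largest difference towards higher KO values was 9.40 points, in the Myom1 chain, with 45.8%, 60.2% and 18.2% in WT and 31.8%, 58.2% and 62.4% in KO.

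Chains of the 12 largest differed widely in how much of them was marked. The Col18a1 chain was covered 84.3%, 97.2% and 66.9% in WT 1, 2 and 3 and 38.7%, 96.6% and 55.1% in KO 1, 2 and 3. The Mat1a chain was covered 67.2%, 95.4% and 66.6% in WT and 46.5%, 82.6% and 44.5% in KO. The Rbm47 chain was covered 40.7%, 88.5% and 56.6% in WT and 24.0%, 67.8% and 38.0% in KO. In all 3 the libraries of the genotypes overlap.

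Others were sparsely marked. The Hsd17b6 chain, with 5 regions, had only 13.2%, 19.7% and 19.8% of its span covered in WT and 4.41%, 24.3% and 16.2% in KO. The Khdc1a chain near Gsta3 had 9.98%, 24.9% and 20.2% in WT and 1.60%, 3.73% and 12.5% in KO. The Ell chain, by contrast, had means of 51.6% ± 20.2 in WT and 51.5% ± 25.4 in KO (SD, n = 3 each), a difference of -0.16 points.

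The other chains of this group lay between these. The Cyb5a chain was covered 22.9%, 50.5% and 23.4% in WT and 6.05%, 32.9% and 5.52% in KO. Of its 5 regions, the fourth alone was marked in all 6 libraries. The Itpr1 chain of 4 regions was covered 13.8%, 33.4% and 19.1% in WT and 2.47%, 23.5% and 23.7% in KO. In both chains KO 1 was far below the WT libraries and KO 2 among them.

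At Adh7, where the Gm40156 sequence lies in the third region, coverage was 9.03%, 34.1% and 10.4% in WT and 4.06%, 29.9% and 19.1% in KO. That region was marked in WT 2 and KO 2 only, and the first region in all 6 libraries. The Adgrv1 chain had means of 26.3% ± 24.7 in WT and 23.8% ± 15.8 in KO (SD, n = 3 each). In each of these 4 chains the libraries of the genotypes overlap.

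At Rbm47 3 of the 5 regions were marked in all 6 libraries and the other 2 in all but KO 1. At Mat1a the fourth region was marked in all 6 and the others in all but KO 1. At Col18a1 the first region was the one not marked in KO 1. In Ell the fourth region lacked the mark in KO 1 and KO 3, and the other 3 regions had it everywhere.

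The chain in Slc25a25, the gene of a mitochondrial ATP-Mg/phosphate carrier, with Lcn2 within 50 kb, was the most evenly marked. Its covered share was 90.3%, 100% and 89.1% in WT and 88.1%, 100% and 93.7% in KO, and all 3 regions lay in 1 H3K4me2 peak in each of the 6 libraries. This chain was chosen after its values were seen. One of the sequences printed above, with TTGAGCAA, lies in the third of its regions. Its libraries overlap fully.

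The Igf1 chain, chr10:87892143-87916314, lies inside the gene. The third region of this chain, chr10:87905937-87907326, was the widest C/EBPα region of all 236 by its mean percentile of peak width (99.7). Its peaks were 1199 and 1170 bp wide in WT and 1376 and 1339 bp in KO, and its ARID1A peak was 551 bp wide, at percentile 95.9 of the V5 list. It had H3K4me2 in all 6 libraries. The other 3 regions were marked less: the first in KO 3 only, the second in KO 2 and KO 3, and the fourth in WT 2, WT 3 and KO 2. Span coverage was 21.5%, 65.6% and 23.0% in WT and 8.17%, 38.9% and 32.2% in KO.

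Among chains near the liver genes, chosen for this paragraph after their values were seen, coverage ranged widely too. The Ghr chain had the least in WT, with means of 9.47% ± 3.49 in WT and 11.5% ± 5.23 in KO (SD, n = 3 each). The chain near Cps1 had 34.8%, 49.1% and 29.3% in WT and 28.7%, 41.4% and 28.9% in KO. The Gc chain had 75.8%, 82.9% and 73.9% in WT and 47.1%, 80.8% and 60.0% in KO. The Tat chain had 100%, 100% and 38.8% in WT and 55.5%, 100% and 59.3% in KO. In each of these the libraries of the genotypes overlap.

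The C/EBPα and V5 peaks chose the regions, so their widths are given as a description with no test. The files give no strength of these peaks, and width is stated as a percentile within each list. The median percentile of the 236 regions was 75.4 in WT 1, 80.1 in WT 2, 76.8 in KO 1 and 80.8 in KO 2. For isolated regions it was 71.3, 75.8, 67.9 and 70.0, and for all regions with a peak in 4 lists 59.2, 65.4, 57.4 and 60.3. Chains of 2 lay between the clustered and the isolated regions, at 73.2, 77.1, 72.5 and 75.8. The ARID1A peaks had medians of 333.5 bp at clustered and 311 bp at isolated regions.

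Both KO percentiles were above both WT percentiles at 36 clustered regions (15.3%) and 262 isolated ones (10.8%), where the background over all regions with 4 peaks was 14.7%. Both were below at 55 (23.3%) and 778 (32.2%), where the background was 27.8%. The lists have different numbers of peaks. With each cut to its 16178 widest peaks, the medians of the clustered regions were 73.0, 71.4, 76.8 and 79.0 and those of the isolated regions 69.3, 66.1, 67.9 and 67.5. On this footing both KO medians were above both WT medians for the clustered regions and, at 71.6, 68.6, 72.5 and 73.9, for chains of 2. For isolated regions the lists of the genotypes overlap, as they do for all regions with 4 peaks, at 57.5, 56.6, 57.4 and 57.7. Without the cut the lists of the genotypes overlap for clustered regions, chains of 2 and all regions with 4 peaks. For isolated regions both KO medians (67.9 and 70.0) were then below both WT medians (71.3 and 75.8). The cut leaves the KO 1 list whole, and these lists chose the regions, so no difference between genotypes is drawn from these widths.

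**Figure D5:**
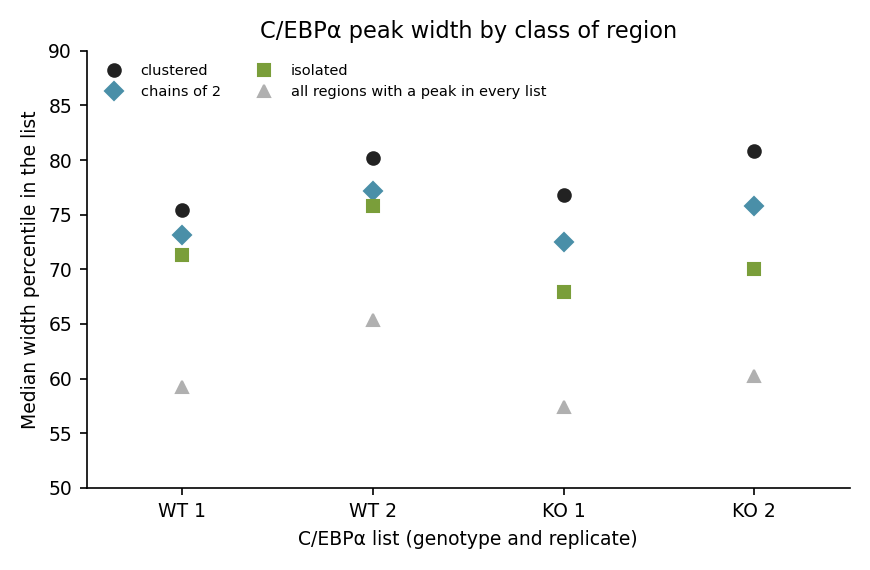
C/EBPα peak width, as a percentile within each list, at clustered regions, chains of 2, isolated regions and all regions with 4 peaks, by library. The medians of clustered regions were 75.4 to 80.8 and those of isolated regions 67.9 to 75.8.

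Other C/EBPα regions, not distal and shared, also lay inside the spans. There were 66 of them in 43 chains, and 29 chains held none. None was lost in the KO lists (peak in both WT and no KO list), against a background of 11.7% over all merged regions, and 2 were gained (3.03%, background 2.75%). Over the 23954 regions that are not distal and shared, which leaves out those the rule fixes as kept, 13.3% were lost and 3.13% gained. Of the 66, 24 had a peak in all 4 lists and 40 had another pattern. Within 12.5 kb outside the spans 8 of 141 were lost (5.67%), and within 12.5 kb of isolated regions 234 of 2931 (7.98%). For chains of 2 the count at this distance was 34 of 550 (6.18%). Taking a count of 0 to allow up to 3, the 0 of 66 allows a share of up to 4.55% by counting alone. This treats the 66 regions as independent, though they lie in 43 chains. The difference was not tested, since the C/EBPα lists chose the chains.

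The V5 list had 250 peaks inside the spans, of 5726 in all, and 11 of these lay off the clustered regions. Each of the 24 other regions with a peak in all 4 C/EBPα lists lacked a V5 peak, which the rule sets for all but 1 of them, since 1 lay at a gene end.

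The labelled cell type was checked with markers. All 6 hepatocyte markers had H3K4me2 at a gene end in all 6 libraries, against 0 of 4 endothelial, 0 of 4 stellate, 0 of 4 Kupffer cell and 0 of 3 lymphocyte markers, 1 of 4 biliary and 1 of 3 neuronal ones. The mark was absent from all libraries at 0 of 4 endothelial, 1 of 4 stellate, 2 of 4 Kupffer cell and 3 of 3 lymphocyte markers. It was absent at 1 of 4 biliary and 2 of 3 neuronal ones, so the rest had it in at least 1 library. C/EBPα was counted in all 4 lists at 3 of the 6 hepatocyte markers and in none at 3. Of the hepatocyte markers 1 lay within 50 kb of a chain, and of the non-hepatocyte markers none did.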

How the data were processed

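ChIP-seq peak lists of 11 samples were used, and 10 input samples were not used here. Per the submitters' processing notes, the build was mm10 and the tools were MACS2 2.0.10.20131216, Bowtie2 2.2.3, HOMER and Picard, with no role or order given. The deposited C/EBPα lists (17733, 23646, 16178 and 17781 peaks) and V5 list (5726) give only positions. The peaks in them come to 40.0% to 40.1% of the highest peak number, and how they were picked is not stated. For H3K4me2, the authors' files give each broad peak a fold over local background (a ratio), a score, and −log10 p and q values, per the broadPeak layout. The score and fold were not used, and −log10 q only set alternatives. The authors' lists give no read counts, so the depth is unknown.

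Regions, chains and overlaps (1 bp) were computed with Python 3.11.15, numpy 2.4.6 and scipy 1.17.1, and checked on simulated data. Genes and promoter windows came from RefSeq GRCm38.p6 (21887 protein-coding genes). All 405 genes of 20 lists matched by symbol. No strand was used, so a gene end is either end of a gene. Groups were compared with exact two-sided permutation tests over libraries, and classes of regions with exact sign-flip tests over the 6 libraries. The 5 p-values were adjusted by Benjamini-Hochberg. Named chains are the 12 with most members, ties by length, and those whose KO libraries all lie on one side of the WT libraries. Others are stated as chosen after their values were seen. The rule would also have named chains holding a lost region and chains of 5 or more near a liver gene, and there were none. The members and lists were chosen with earlier results of these data known.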

Additional observations from a re-analysis of the deposited data

How the results depend on the processing

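The 5 H3K4me2 comparisons were repeated with other chaining distances, minimum chain lengths, peak thresholds and overlaps and with each library left out. The adjusted p of no comparison passed 0.05 in the main setting. The sign of the mean was kept in every alternative, except that the KO minus WT difference of the clustered minus isolated gap turned from -1.29 to 0.68 percentage points with chains of 4 or more, and ran from -4.02 to 0.47 with 1 library left out. The marked share of members, KO minus WT, ran from -32.1 to -14.6 (with 1 library left out from -26.6 to -8.97), the clustered minus isolated gap from 1.84 to 7.29 (5.05 to 6.85), span coverage from -14.7 to -6.54 (-17.2 to -2.15) and the flanks from 3.61 to 6.23 (4.35 to 5.93). The 1.84 came from chains of 4 or more, where the exact p was 0.469 in place of 0.03125 and 3 of 6 libraries were above 0. In the other alternatives that kept 6 libraries the exact p of this gap was 0.03125. The -32.1 came from cutting all lists at the pooled median −log10 q of 1.88. The cause of these shifts was not tested.

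With a replicate block, pairing libraries of the same number, the values were -16.5 (exact p = 0.25), -1.29 (exact p = 0.75) and -9.12 (exact p = 0.25), where 3 pairs cannot go below 0.25. The correlations of same-numbered libraries were 0.104, 0.280 and 0.0736, and those of differently numbered ones ran from -0.248 to 0.152. In each same-numbered pair the marked share and the span coverage were lower in KO. Whether the numbers pair the libraries was not settled, and the main tests did not pair them. The number of regions was 56 in 18 chains at a distance of 5 kb, 475 in 139 at 25 kb, and 71 in 17 with chains of 4 or more. It was 239 to 280 in 72 to 85 chains without 1 C/EBPα list. Lists with a gene near a chain numbered 10, and 6 within 10 kb. The centre-base alternative was chosen after seeing the data. Unknown read depth limits all shares, since a missing peak may be a missed one.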

Other observations

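Several chains lay far from any protein-coding gene, and these were picked out after their values were seen. The chain nearest to Trib1, which encodes a pseudokinase that promotes degradation of C/EBPα, lay 115265 bp from it. Its 3 regions were marked by H3K4me2 in all 6 libraries, and they were 971, 1574 and 1518 bp wide. H3K4me2 covered 26.5%, 49.4% and 35.6% of its span in WT 1, 2 and 3 and 27.4%, 27.1% and 15.9% in KO 1, 2 and 3, so the genotypes overlap. The Lacc1 chain lay 183571 bp from Lacc1, and the Ptp4a1 chain 63345 bp from Ptp4a1, and a long noncoding RNA start lay in a region of each. The Tomm20 chain, 121745 bp from its gene, was the shortest of all at 2.85 kb, with 40.5%, 54.2% and 6.60% covered in WT and 28.3%, 75.2% and 15.8% in KO.

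Chains also lay in genes of nuclear receptors and membrane transporters, again picked out after their values were seen. In Nr3c1, the glucocorticoid receptor gene, 22.7%, 60.8% and 29.0% of the span was covered in WT and 18.6%, 55.9% and 9.88% in KO. In Nr1i2 it was 75.2%, 100% and 62.0% in WT and 40.4%, 83.8% and 80.9% in KO. In Aqp9, the gene of the glycerol channel of hepatocytes, it was 57.4%, 83.6% and 52.5% in WT and 28.5%, 74.7% and 48.8% in KO. In Atp8b1, the gene of a canalicular phospholipid flippase, it was 53.6%, 67.0% and 40.9% in WT and 21.1%, 56.8% and 47.4% in KO. The genotypes overlap in all 4, and KO 1 was the lowest library in Nr1i2, Aqp9 and Atp8b1.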
